A study of Danio rerio with 6 samples.

Results

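The genes described here encode the proteasome and the enzymes that attach or remove ubiquitin, measured in whole brains of adult female zebrafish that had met lead only as embryos. Members were chosen by gene symbol: the proteasome subunits psma to psmg, the activating and conjugating enzymes uba and ube2, the deubiquitinases usp, the F-box proteins fbxo and fbxl, and the cullins cul, with ube2c left out. The rule found 107 of 38489 array targets, which belong to 78 genes, 81 targets by the symbol in the files and 26 by the RefSeq symbol of their transcript. A target is a transcript sequence covered by short probes, 3 of them for each member. The E1 activating enzymes and the proteasome assembly chaperones psmg had 0 targets under such a symbol, so the members run from the E2 enzymes onward.

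Messenger RNA was measured on one-colour arrays labelled with Cy3, 1 brain per array. All 6 fish were AB females aged 12 months, without a transgene or mutation named in the labels. The 3 lead fish had been kept as embryos in lead acetate at 100 ppb, starting before 2 hours and ending at 72 hours after fertilization, and then lived in clean water. The 3 control fish went through the same schedule at 0 ppb. In the scan names the lead arrays carry consecutive crop numbers and the control arrays the next ones. What that number stands for is not stated, and it cannot be told apart from the group. Nothing in the labels says whether the fish of a group shared a clutch or a tank, so p-values measure the spread between these brains. Males were not analysed here.

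Ubiquitin is a small protein that cells couple to other proteins as a tag. An E1 enzyme activates it, an E2 enzyme carries it, and an E3 ligase such as a cullin with an F-box protein chooses the substrate, while deubiquitinases take the tag off again. Tagged proteins are unfolded by the 19S cap of the proteasome, whose ATPase ring feeds them into the barrel-shaped 20S core, where beta subunits cut them. In neurons this system turns over synaptic and regulatory proteins, and under interferon vertebrate cells exchange some beta subunits for immune forms. In what follows a value is the log2 of the deposited target intensity. A difference is the lead mean minus the control mean on that scale, given with its standard error from limma, over 3 brains per group. A target was called above background on an array where it exceeded the 95th percentile of that array's random control probes. Levels of different targets are not compared, since each probe has its own affinity.

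The arrays were close in overall level. Median target intensities ran from 2100 to 2211, the background threshold from 948 to 1312, and 59.8% to 66.7% of targets lay above it. Of the 107 members 88 were above background on all 6 arrays, or 82.2% beside 55.8% of all targets, and 12 on none, or 11.2% beside 29.9%. All 6 measured neuron markers were above background on every array. Some marker lists moved with the groups or with 1 array. Of 9 measured genes of dividing cells, 9 were higher in lead brains (median 0.51), and their summed log2 level was between 13.53 and 13.78 in control and between 13.89 and 14.23 in lead brains, with 4 of the 9 under background on every array. Of 9 measured red blood cell genes, 8 were lower (median −0.73), with summed levels between 16.53 and 16.65 in control and between 15.51 and 16.46 in lead brains. Pituitary genes were high in control brain 1, with a summed level of 16.47 against 12.94 to 14.12 elsewhere, and cilia genes were highest in lead brain 1. Their part in the results below was not tested. In whole-brain RNA, fewer cells of a type and less RNA per cell cannot be told apart.

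No gene of the proteasome or of the ubiquitin enzymes passed the test between lead and control brains, and the sizes of the differences were small. At an adjusted p under 0.05 (limma, Benjamini-Hochberg over the 38489 targets) there were 0 of the 107 members and 0% of all targets. The smallest adjusted p of a member was 0.958, and that of any target 0.152. At an unadjusted p under 0.05 there was 1 member, or 0.935%, beside 4.41% of all targets. That member was higher, as 2.57% of all targets were at that p, while 0 members were lower, beside 1.83%. The groups did not overlap in 5 members, or 4.67%, beside 9.49% of all targets. Of these 4 were higher, or 3.74% beside 5.74%, and 1 was lower, or 0.935% beside 3.75%. All 107 members differed by less than 1.5-fold between the group means, beside 96.1% of all targets. For 74 members (69.2%) the whole 95% interval of the difference lay within 1.5-fold in either direction, beside 50.2% of all targets, and for 98 members (91.6%) within 2-fold, beside 86.8%.

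The differences leaned to the higher side. Of the 107 targets 79, or 73.8%, had a higher mean in lead brains, beside 50.5% of all targets. Among targets above background on all 6 arrays the share was 70 of 88 members (79.5%), beside 53.6% of all 21465 such targets. With all targets split into 4 equal groups by mean level, from dimmest to brightest, the higher members were 7 of 12, 8 of 13, 28 of 33 and 36 of 49, beside 46.5%, 49.1%, 52.5% and 54% of all targets. With each gene represented by its target of highest mean, 60 of 78 genes were higher, with a median difference of 0.09, where the median over all genes was 0.02. Members were measured in the same 6 brains, so they are not independent observations of the exposure. The median deviation of all members from the 6-array mean was −0.02, 0.00 and −0.07 in control brains 1, 2 and 3 and 0.06, 0.05 and 0.00 in lead brains 1, 2 and 3. The third lead brain therefore stood at the level of the second control brain. Without lead brain 1 the median difference was 0.05 and 52 of 78 genes were higher.

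**Figure D1:**
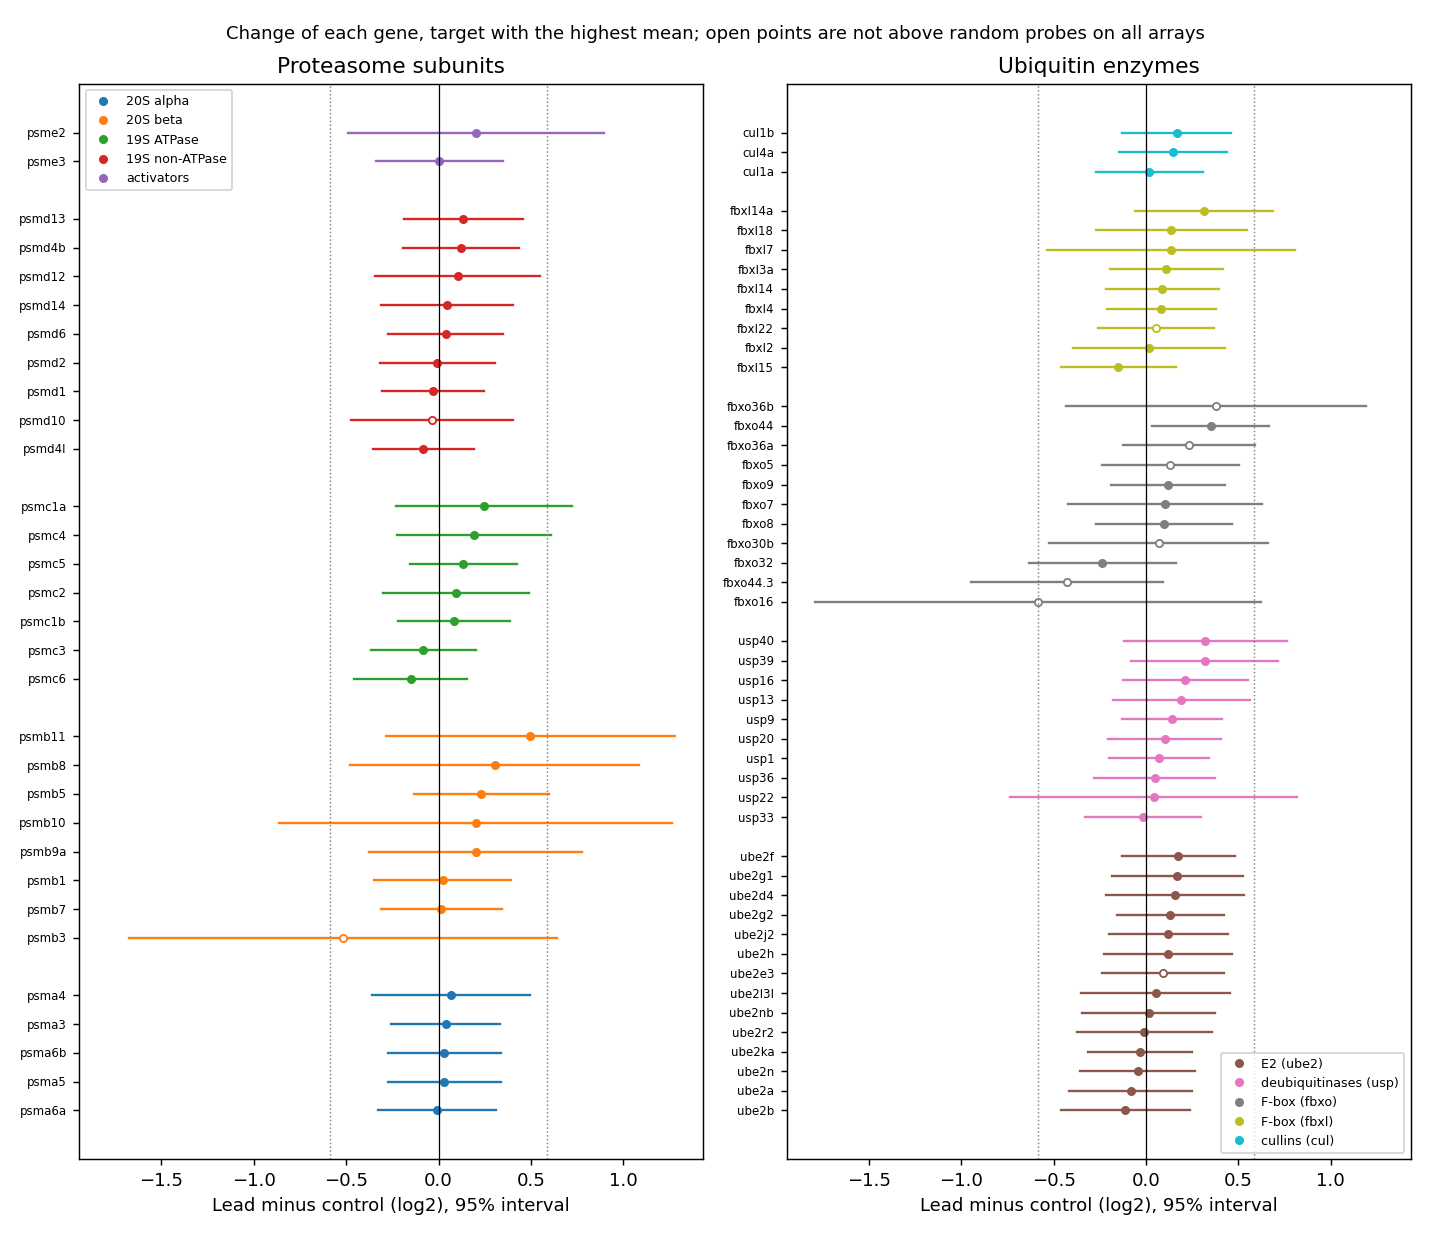
Difference between lead and control brains (log2) for each of the 78 genes, by class, with its 95% interval from limma over 3 brains per group. The dotted lines mark 1.5-fold and open points are genes not above background on all 6 arrays. The interval of fbxo44 is the 1 that leaves out 0, and psmb3, psmb10 and fbxo16 have wide intervals.

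Alpha subunits of the 20S core form the outer rings and the gate of the barrel, and 5 of their genes were measured. This class had the median over genes closest to 0, while over targets the psmd class was closer (−0.006 beside 0.03). The alpha genes psma3, psma4, psma5, psma6a and psma6b differed by between −0.01 and 0.07, with a median of 0.03, and 4 of the 5 were on the higher side. The largest was psma4 at 0.07 ± 0.18, with values of 13.65, 13.49 and 13.13 in control brains and 13.62, 13.57 and 13.28 in lead brains. The groups overlapped over nearly their whole range. For psma3, at 0.04 ± 0.12, the interval ran from −0.26 to 0.33.

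The 8 genes of beta subunits, which line the cutting chamber, had the highest class median, 0.20, with 7 of 8 on the higher side. At an unadjusted p under 0.05 there were 0 of their targets, beside 4.41% of all targets. The class median mixes 2 kinds of genes. The immune-type psmb8, psmb9a, psmb10 and psmb11, described below, were at 0.30, 0.20, 0.20 and 0.50. The standard psmb1, psmb3, psmb5 and psmb7 were at 0.02, −0.52, 0.23 and 0.01. The 8 genes were also the most variable proteasome class from brain to brain, with a median within-group SD of 0.33 over targets, against 0.12 for the alpha subunits. Lead brain 1 carried the class: its median deviation was 0.38, while lead brains 2 and 3 stood at −0.15 and 0.04 and the controls at −0.17, 0.04 and −0.22. Among the standard catalytic subunits, psmb5, which holds the chymotrypsin-like site, had values of 12.32, 12.57 and 12.19 in control brains and 12.70, 12.66 and 12.43 in lead brains. Its difference of 0.23 ± 0.15 came with 1 lead brain below the highest control. The trypsin-like subunit psmb7 was at 0.01 ± 0.14 and the structural subunit psmb1 at 0.02 ± 0.16.

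The values of the structural subunit psmb3 were widely spread in its 1 member target. A target named PSMB3 only by a homologue, above background on every array, was at −0.003 ± 0.11 and is described at the end. The member target, OTTDART00000013518, stood at 10.12, 10.18 and 11.23 in control brains and at 9.86, 9.18 and 10.94 in lead brains. The brains numbered 3 were the high ones in both groups, and only lead brain 3 of the lead brains was above background. The difference was −0.52 ± 0.49 (limma, unadjusted p = 0.327), a size not well measured since 2 of the 3 lead values lie under background. It was −0.05 with values floored at background, −0.11 without lead brain 2, −0.15 without control brain 3 and −0.99 without lead brain 3.

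Immune-type subunits take the place of the standard cutters in immune cells and under interferon. The files name 4 such genes, psmb8, psmb9a, psmb10 and psmb11, each with a target on chromosome 19 and another on a sequence called AB, at coordinates of an assembly that is not given in the sources used here. RefSeq lists the file's psmb11 as an older name of psmb12 and psmb8 as one of psmb8a, and psmb10 both as a gene of its own and as an older name of psmb13a. The symbols here are those of the files.

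These genes and the activator psme2 (PA28 beta), which in mammals is induced along with them, had values that varied from brain to brain. All their targets, except those of psmb8 and psmb11 on chromosome 19, had a within-group SD larger than their difference between groups. The AB target of psmb10 stood at 10.77, 11.93 and 10.79 in control brains 1, 2 and 3 and at 11.82, 10.52 and 11.76 in lead brains 1, 2 and 3. Control brain 2 was thus level with lead brains 1 and 3, about 1 log2 unit over the others, and the span was 2.67-fold. The AB target of psmb8 read 13.45, 14.04 and 13.33 in control brains and 14.49, 13.29 and 13.96 in lead brains, with the same 3 brains highest. The AB target of psmb9a gave 11.80, 12.18 and 11.91 in control brains and 12.60, 11.70 and 12.19 in lead brains, again with those 3 highest. For psme2 the values were 12.42, 12.77 and 12.16 against 13.16, 12.10 and 12.71. In each of these 4 targets lead brain 2 was the lowest of all 6 brains.

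Of the 9 targets of these 5 genes, 7 had control brain 2 and lead brains 1 and 3 as their 3 highest arrays. The count includes the chromosome 19 target of psmb11, which was under background on every array, so its order has no weight, and without it 6 of 8 had that order. The exceptions were the chromosome 19 target of psmb8 and the AB target of psmb11. The summarized values of the 2 psmb8 targets also differed: that on chromosome 19 was highest in lead brain 2 (13.30), the brain in which the AB target was lowest (13.29). The brighter probes of the chromosome 19 target were both highest in lead brain 1 (14.16 and 14.12). Only its probe under background was highest in lead brain 2 (7.83), so this difference between the targets is uncertain. This shared order was noticed in the values and is a description. Of an interferon response list 7 of 28 genes were measured, psme2 among them, with 3 of the 7 under background on every array. Its median deviations had another order, at −0.18, 0.03 and −0.02 in control brains and 0.42, −0.01 and −0.07 in lead brains. Its summed log2 level was 15.03, 15.37 and 15.17 in control brains and 15.36, 15.02 and 15.20 in lead brains. By that sum control brain 2 and lead brains 1 and 3 were the 3 highest, the order of most of these targets. That sum contains psme2, itself 1 of the 9 targets, so it is no separate measure of their order. The gene b2m, which contributes most to the sum, was highest in control brains 2 and 3 and lead brain 1 (14.861, 14.724 and 14.705). Median deviations of 5 measured microglia markers were 0.22, 0.09 and −0.37 in control brains and 0.11, −0.65 and 0.28 in lead brains, with lead brain 2 lowest. Their summed log2 level ran from 14.68 to 15.47 in control brains and from 14.47 to 15.55 in lead brains. The part of either list in the order of the brains was not tested.

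Between the groups, all 9 of these targets had a positive difference and none passed the test. Values of psmb11, a beta subunit by its file symbol, were 11.94, 11.80 and 11.08 in control brains and 12.71, 11.91 and 11.69 in lead brains. Its difference of 0.50 ± 0.33 was the highest of any member, with an interval from −0.28 to 1.28 and an unadjusted p of 0.176 in limma, and it was 0.19 without lead brain 1 and 0.23 without control brain 3. The AB targets of psmb8, psmb9a and psmb10 were at 0.30 ± 0.33, 0.20 ± 0.24 and 0.20 ± 0.45, and psme2 at 0.21 ± 0.29. Without lead brain 1 these 4 were at 0.02, −0.02, −0.03 and −0.05, and without lead brain 2 at 0.61, 0.43, 0.63 and 0.48. The nuclear activator psme3 (PA28 gamma) had nearly the same values in both groups, 12.58, 12.77 and 12.87 in control brains and 12.58, 12.79 and 12.87 in lead brains.

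**Figure D2:**
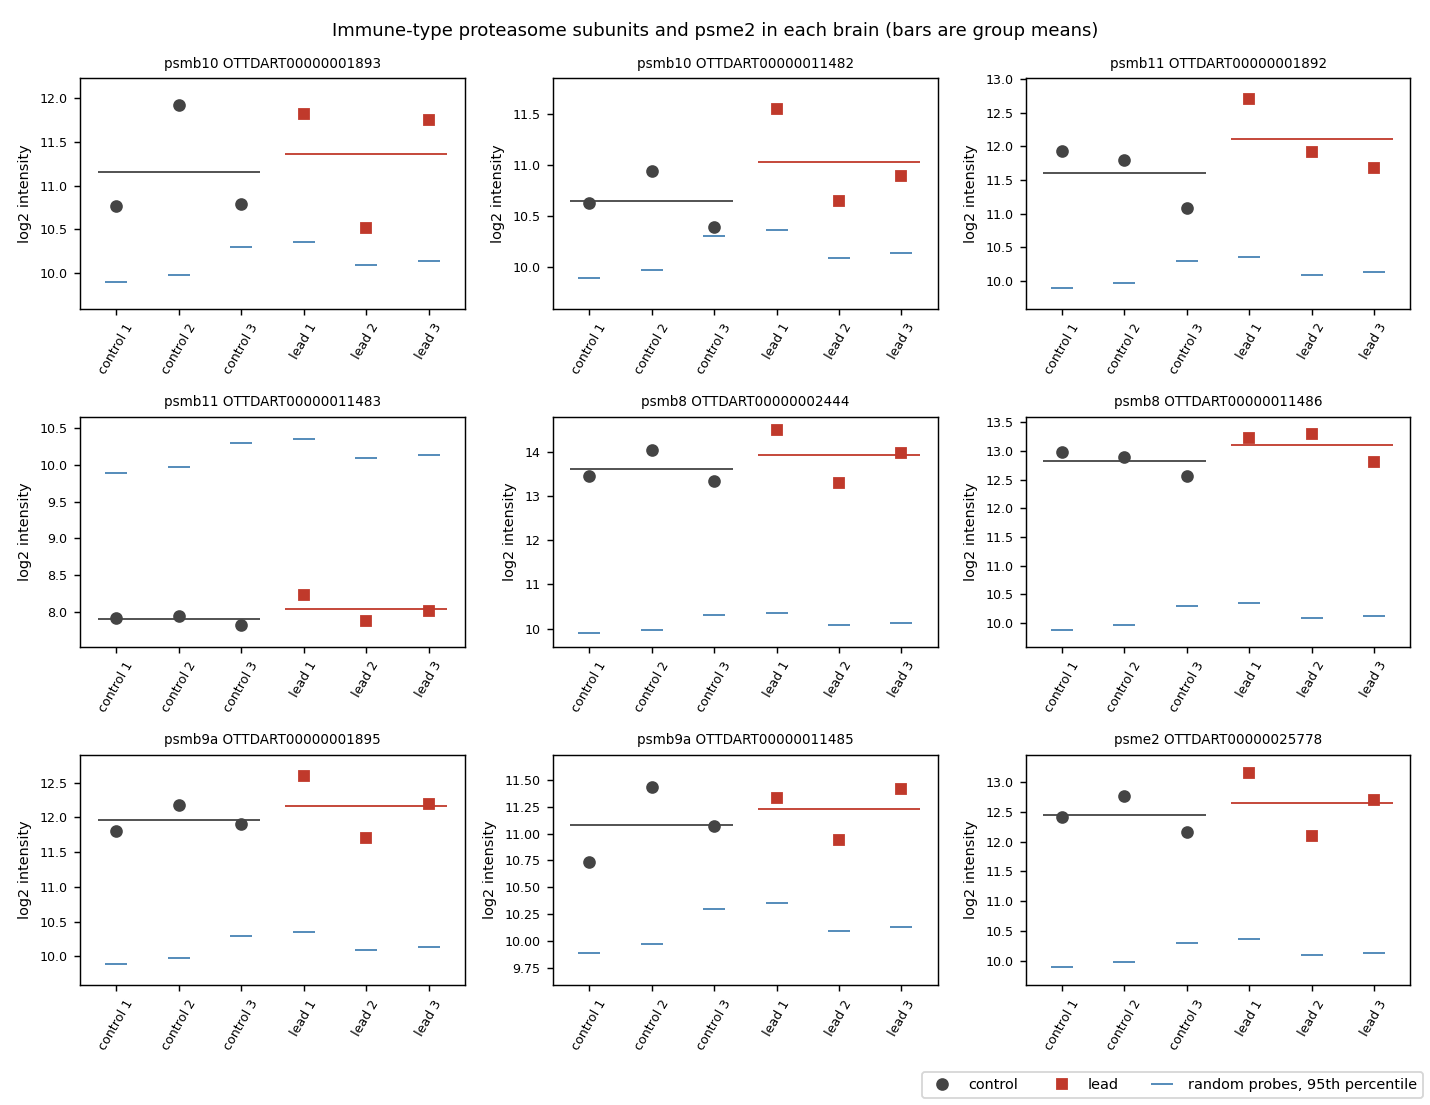
Log2 intensity of the 9 targets of the immune-type beta subunits and of psme2 in each brain, with group means as bars and each array's background threshold as short lines. In 7 of the 9 panels control 2, lead 1 and lead 3 are the 3 highest points, and 1 of these panels, psmb11 OTTDART00000011483, lies under background throughout.

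The ATPases psmc, which unfold the substrate at the base of the 19S cap, were at a class median of 0.10, with 5 of 7 genes on the higher side. The largest differences were psmc1a at 0.25 ± 0.20 and psmc4 at 0.19 ± 0.18, and the lowest was psmc6 at −0.15 ± 0.13. Other psmc6 targets, also above background on every array, were at −0.03 ± 0.12 and 0.04 ± 0.12. Targets of psmc1a did not go the same way either. Target OTTDART00000025005 read 14.62, 13.95 and 14.56 in control brains and 14.59, 14.70 and 14.57 in lead brains, so its difference came from control brain 2 alone. The other target, OTTDART00000025006, read 12.05, 12.53 and 12.67 against 11.59, 12.31 and 12.42, at −0.31 ± 0.27, with lead brain 1 lowest. For psmc5 the interval of 0.13 ± 0.12 ran from −0.16 to 0.43.

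The 9 genes with a psmd symbol, classed by that symbol as other 19S genes, had a class median of 0.04, with 5 higher and 4 lower. Of the lower ones psmd10 (−0.04 ± 0.18) was above background on only 1 array. Their range over genes, −0.08 to 0.14, was narrow. It takes in the scaffold subunits psmd1 (−0.03 ± 0.12) and psmd2 (−0.01 ± 0.13), the lid deubiquitinase psmd14 (0.05 ± 0.15) and the lid subunit psmd13 (0.14 ± 0.14). The ubiquitin receptor psmd4 appears in 2 forms: psmd4b was at 0.12 ± 0.13 and psmd4l at −0.08 ± 0.12. The values of psmd4l were 12.93, 12.88 and 12.95 in control brains and 12.86, 12.88 and 12.77 in lead brains. It is the 1 member whose lead brains all lay below its controls, by a margin smaller than the standard error.

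E2 enzymes hand ubiquitin, or a ubiquitin-like protein, to the substrate with an E3. The 14 genes had a median of 0.07, with 9 higher and 5 lower. Of 19 targets 0 had an unadjusted p under 0.05, beside 4.41% of all targets, and 0 were without overlap, beside 9.49%. The largest differences belonged to ube2f, which in mammals charges cullins with NEDD8, at 0.18 ± 0.13, ube2g1 at 0.17 ± 0.15 and ube2d4 at 0.16 ± 0.16. Of the 3 probes of ube2d4 only 1 was higher, at 0.51, and the others were at −0.09 and −0.57. Values of ube2f were 11.88, 11.97 and 11.89 in control brains and 12.21, 12.12 and 11.94 in lead brains, with lead brain 3 inside the control range. The endoplasmic reticulum enzymes ube2g2 and ube2j2 were at 0.13 ± 0.12 and 0.12 ± 0.14. On the other side ube2b, a RAD6 homologue that acts in DNA damage tolerance, was at −0.11 ± 0.15. The intervals of 18 of the 19 E2 targets lay within 1.5-fold. The exception was a target of ube2n, the enzyme of signalling chains, which read 14.72, 14.06 and 14.20 in control brains and 14.04, 13.88 and 14.14 in lead brains. That difference of −0.31 ± 0.20 came mostly from control brain 1, and the other ube2n target was at −0.04 ± 0.13.

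Deubiquitinases of the usp family leaned to the higher side, and none passed the test. Of 17 targets 16 were higher in lead brains, as were 9 of 10 genes, and the gene median was 0.12. Their 17 targets were all above background on every array. The groups did not overlap in 3 targets, all higher, where 5.74% of all targets were higher without overlap. At an unadjusted p under 0.05 there were 0, beside 4.41% of all targets. Per brain the class median deviated by −0.13, −0.02 and −0.08 in control brains and by 0.05, 0.12 and 0.01 in lead brains. Each lead brain thus stood above each control in this class median. The same held narrowly for the 3 cullin genes, with 0.041 in lead brain 1 against 0.036 in control brain 2. In every other class the groups overlapped.

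The gene usp33, whose mammalian product acts on the axon guidance receptor Robo1, had 3 targets of overlapping extent on chromosome 2. Target OTTDART00000027255 (3211793 to 3220700) read 12.38, 12.72 and 12.44 in control brains and 12.86, 12.81 and 12.79 in lead brains, without overlap, at 0.31 ± 0.14 (limma, unadjusted p = 0.0607). Target OTTDART00000027254 (3211800 to 3226450) was at 0.23 ± 0.16. The longest, OTTDART00000027253 (3211783 to 3272124), had values of 15.07, 15.27 and 14.97 against 15.05, 15.06 and 15.14, at −0.02 ± 0.13. The shorter targets thus had higher means in lead brains and the longest did not.

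Other deubiquitinases lay within 0.32. The splicing-associated usp39 read 13.00, 13.39 and 13.11 in control brains and 13.54, 13.65 and 13.25 in lead brains, at 0.32 ± 0.17 (limma, unadjusted p = 0.0996). Its lead brain 3 lay below control brain 2. One target of usp40 was at 0.32 ± 0.19 and the other at 0.07 ± 0.17. The large deubiquitinase usp9 and the nucleolar usp36, named because their groups did not overlap after the values were seen, had small differences. Values of usp9 were 14.37, 14.43 and 14.42 in control brains and 14.54, 14.51 and 14.60 in lead brains, at 0.14 ± 0.11 with an interval from −0.13 to 0.41. One target of usp36 was at 0.23 ± 0.15 and its other target at 0.05 ± 0.14. The histone H2A deubiquitinase usp16 was at 0.21 ± 0.14 in one target and at 0.04 ± 0.13 in the other, and usp13 was at 0.19 ± 0.16.

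F-box proteins bind the substrate in cullin 1 ligases. The 11 fbxo genes had a median of 0.10 with 8 higher and 3 lower, and they had the lowest share of targets above background on every array, 6 of 13. The 1 member with an unadjusted p under 0.05 is a target of fbxo44, OTTDART00000026964 on chromosome 23 (11054086 to 11058114, in the assembly of the OTTDART targets). It read 10.99, 11.16 and 10.83 in control brains and 11.39, 11.31 and 11.33 in lead brains. All lead brains were above all controls, and its 3 probes differed by 0.25 to 0.39. The probe at 0.25 was under background on every array, at 7.12 to 7.66. In the probe at 0.31 the groups overlapped, with lead brain 2 (12.75) below control brain 2 (12.79), and in the probe at 0.39 they did not. The difference of the target was 0.35 ± 0.13 with an interval from 0.03 to 0.67 (limma, unadjusted p = 0.0352, adjusted p = 0.958). The unadjusted p ran from 0.0228 without control brain 2 to 0.112 without control brain 3.

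A second fbxo44 target, OTTDART00000026963 (11054029 to 11062978), covers the same place and did not share that difference. It read 11.04, 11.13 and 10.74 in control brains and 11.09, 10.65 and 11.32 in lead brains, at 0.05 ± 0.21, with overlapping groups. The paralog fbxo44.3 went the other way, at 10.52, 11.02 and 10.96 against 10.03, 10.55 and 10.64, or −0.43 ± 0.22 (limma, unadjusted p = 0.0916), with lead brain 1 under background. The fbxo44 genes are close paralogs, so how signal divides among them is uncertain on these probes.

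Values of fbxo16 were mostly under background. Its target OTTDART00000006257 (chromosome 20, 27735765 to 27742994) read 10.06, 8.80 and 10.48 in control brains and 8.83, 10.03 and 8.74 in lead brains. The other target (46276933 to 46283893) read 9.59, 8.49 and 10.14 against 8.64, 9.82 and 8.59. The first was above background in control brains 1 and 3 and on no other array, and the second on none. Neither an order of the brains nor a fold between the groups is therefore given. The gene fbxo36b was under background on all arrays and stood out in 1 brain, 9.15 in lead brain 1 against 7.73 to 8.16 in the other 5.

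Among better measured F-box genes, fbxo32 (atrogin-1), which drives protein loss in wasting muscle, read 11.73, 12.24 and 12.03 in control brains and 11.74, 11.65 and 11.90 in lead brains. Its −0.24 ± 0.17 was the lowest of the fbxo genes above background on every array. The Parkinson disease gene fbxo7 was at 0.10 ± 0.22. The 9 fbxl genes had a median of 0.09, with 8 higher. The highest, fbxl14a, read 11.02, 10.90 and 10.65 in control brains and 11.20, 11.33 and 10.99 in lead brains, at 0.31 ± 0.16 (limma, unadjusted p = 0.0883), with lead brain 3 inside the control range. Of its single probes 2 gave 0.39 and 0.36. The other gave 2.37, through a reading of 6.46 in control brain 1 against 12.52 to 13.18 on the other 5 arrays. The clock gene fbxl3a, which marks cryptochromes for removal, was at 0.11 ± 0.13, and fbxl15 was the lowest at −0.15 ± 0.13.

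**Figure D3:**
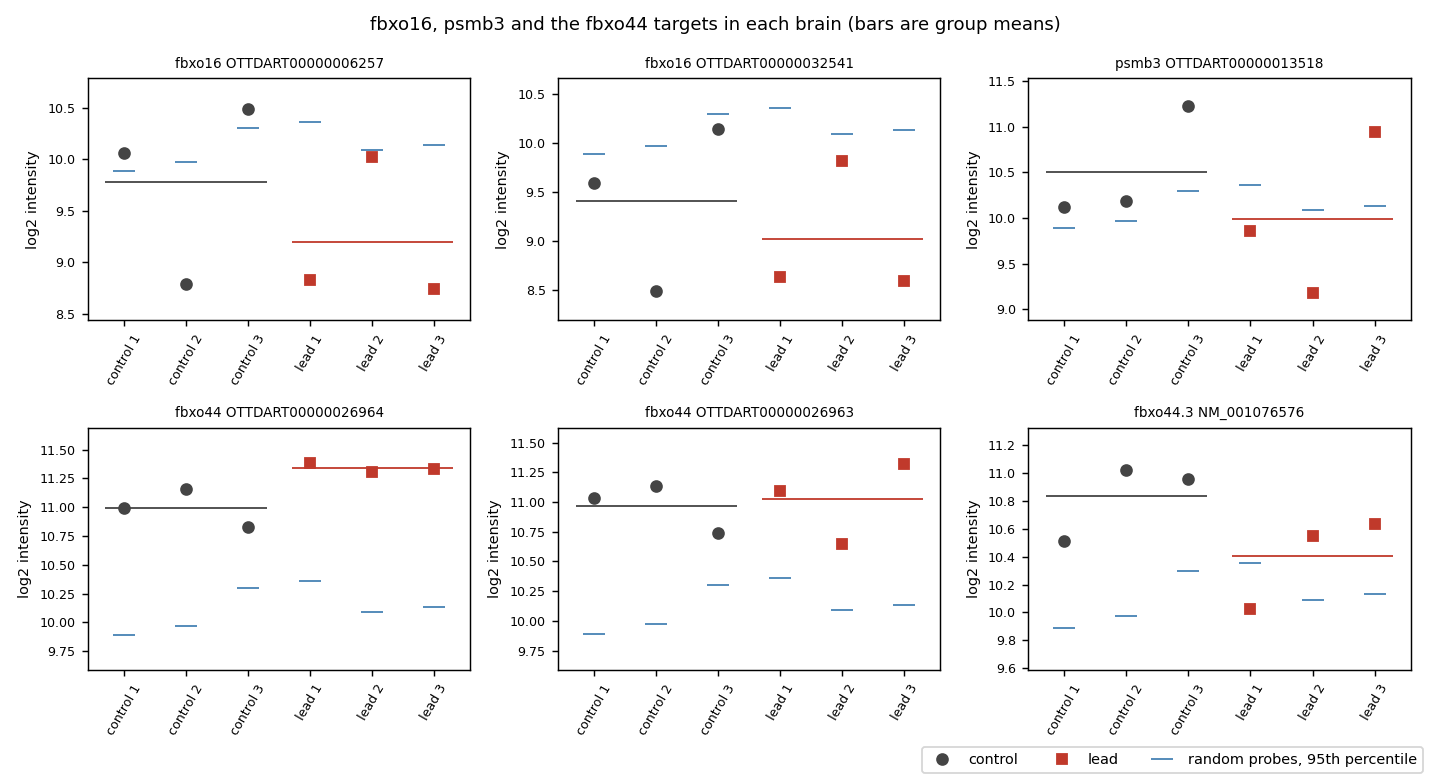
Log2 intensity of the fbxo16, psmb3, fbxo44 and fbxo44.3 targets in each brain, with group means as bars and background thresholds as short lines. The lead brains lie above all controls in the panel of fbxo44 OTTDART00000026964 and overlap them in the panel of its other target.

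Cullins are the scaffolds of the largest ligase family, and 3 were measured. The scaffold of F-box ligases has 2 zebrafish copies: cul1b was at 0.17 ± 0.12 and cul1a at 0.02 ± 0.12. Values of cul1b were 13.94, 14.12 and 13.94 in control brains and 14.12, 14.24 and 14.13 in lead brains, so 1 control brain reached the lowest lead brain. The scaffold cul4a, which works with DDB1, was at 0.15 ± 0.12. All 3 intervals lay within 1.5-fold. The class median deviated by −0.134, 0.036 and −0.117 in control brains and by 0.041, 0.104 and 0.045 in lead brains. The lead brains were thus above the controls, with lead brain 1 close to control brain 2.

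**Figure D4:**
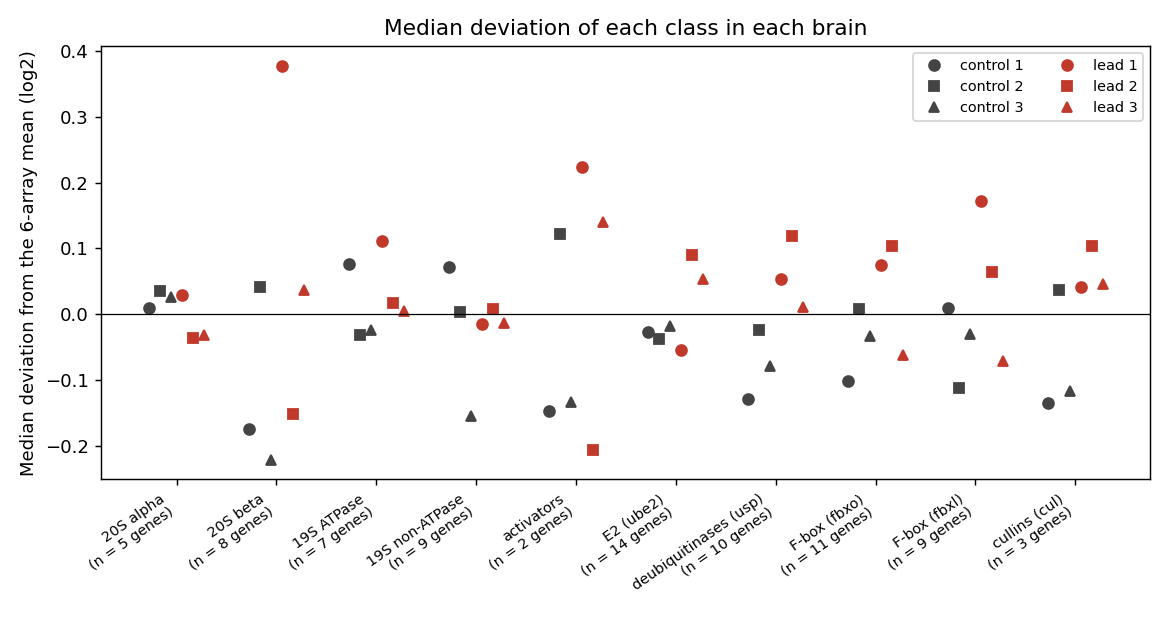
Median deviation of each class from the 6-array mean (log2) in each brain, with the number of genes per class on the axis. Lead 1 is far above the other brains in the 20S beta class (0.38). In the deubiquitinases, and narrowly in the cullins, the 3 lead brains lie above the 3 controls. In every other class the groups overlap.

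Members measured by several targets allow a check within a gene. Of 22 such genes 13 had all targets on the same side of 0, and 9 did not. Of the 16 genes with 2 or more targets above background on every array, 9 had all their targets on one side, dim targets counted. In ube2l3l, 1 of the others, only the target under background on every array was on the lower side (−0.03). The gap between the highest and lowest target of a gene had a median of 0.18 and reached 0.56 in psmc1a. At the level of probes, 213 of 321 were higher in lead brains, and in 46 of 107 targets all 3 probes shared the target's sign, 38 on the higher side and 8 on the lower. The same probe counts were not made over all targets, so they describe the members without a comparison.

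**Figure D5:**
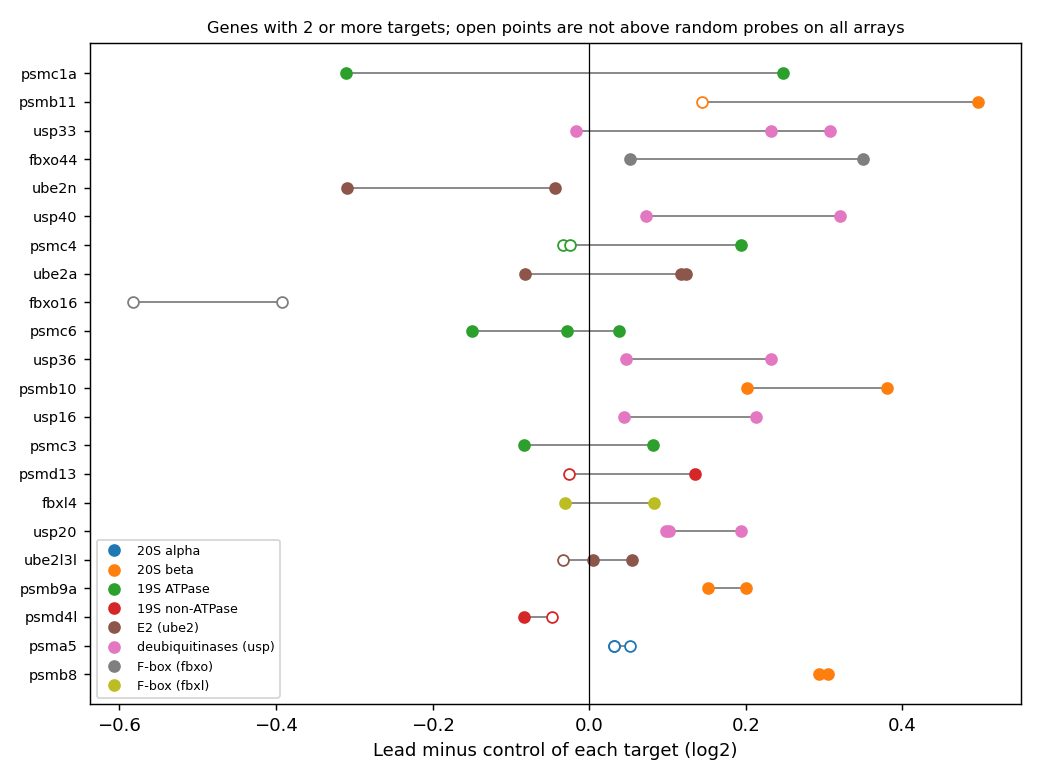
Difference between lead and control brains (log2) of each target, for the 22 genes with 2 or more targets, joined by a line. Open points are targets not above background on all 6 arrays. The lines of psmc1a and usp33 cross 0, while those of psmb8, psmb9a and psmb10 stay on the higher side.

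The spread between brains of a group was modest for most members. Among targets above background on every array the median within-group SD was 0.14 for members and 0.20 for all. An SD over 0.4 occurred in 12 members (11.2%), beside 16.9% of all targets. They were targets of psmb3, psmb8, psmb10, psmb11, psme2, fbxo16, fbxo36b, fbxl7, usp22, psma5 and psmd13, and 6 of the 12 were above background on all arrays.

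Other genes of the pathway, from a list that does not use the rule's symbols, leaned the same way. Of 171 genes on it 41 were measured, 38 of them above background on every array. There were 36 higher and 5 lower, with a median of 0.10, where the median over all genes was 0.02. Of all targets above background on every array 53.6% were higher. At an unadjusted p under 0.05 in limma there were 0, beside 4.41% of all targets. The groups did not overlap in 7 of the 41 genes (17.1%, beside 9.49% of all targets). All 7 were higher, where 5.74% of all targets were higher without overlap. The one with the smallest p was cops3, a subunit of the COP9 signalosome that takes NEDD8 off cullins. It read 14.27, 14.28 and 14.25 in control brains and 14.51, 14.58 and 14.50 in lead brains, a difference of 0.27 ± 0.11 (limma, unadjusted p = 0.051, adjusted p = 0.958). The others were ube3c (0.25 ± 0.14), vhl, the substrate receptor for hypoxia factors (0.25 ± 0.14), the deubiquitinases stambpb (0.24 ± 0.12) and otub1a (0.22 ± 0.11), the anaphase-promoting complex gene cdc16 (0.17 ± 0.12) and the signalosome gene gps1 (0.05 ± 0.11). The ligase siah2l had the largest difference of the list, −0.45 ± 0.22 (limma, unadjusted p = 0.0757), with overlapping groups. The segregase vcp was at 0.03 ± 0.14. These genes were named after their values were seen.

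The authors' deposited table of 94 altered targets holds 0 members, and it holds 0.244% of all targets.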

How the data were processed

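Per the submitters' processing notes, the authors made the target intensities with RMA, of which no version is given; the deposited intensities are on a linear scale. Which arrays were normalized together is not given in the sources used here. Each deposited table also carries a score for the standard error of a target, per the file headers, which no test used. The authors' table of 94 altered targets gives, per the file headers, a signed fold score, a ratio on the log2 scale and a p-value, and served only to look for members.

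Control features were dropped, and the deposited intensities were put on the log2 scale without a filter or an added constant. Lead was compared with control by limma 3.58.1 in R 4.3.3 (lmFit and eBayes, two-sided), with adjusted p-values over all 38489 targets. The number of brains, 3 per group, limits the precision. Background was the 95th percentile of 27114 random probes per array. The fit was checked on simulated data. Of 3055 RefSeq targets 2663 matched the RefSeq table of GRCz12tu, used for names only; coordinates are those of the files, on Zv7 by scaffold names except for OTTDART targets. Tables used pandas 2.3.3 and numpy 2.4.6 under Python 3.11.15, and plots matplotlib 3.10.9.

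The members and lists were chosen with earlier results of these data known. The genes named were the 4 of each class with the smallest unadjusted p, any with p under 0.01 and no overlap, the immune-type subunits, members in the authors' table, some fixed well-known members, the genes whose targets disagreed most, the members with the widest ranges, and up to 10 other pathway genes with p under 0.05. Others are named where a count of 5 or fewer called for them or as examples of their class, after their values were seen.

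Alternatives were 2 further scalings, a filter and a floor at background, probe medians, 2 variance models, array weights, replicate number as a block, leaving out each brain, other rules for members and for the target of a gene. Whether equal replicate numbers pair brains was checked by the correlation of their deviations from the group means, which was 0.31, 0.03 and −0.05 for numbers 1, 2 and 3; they were treated as unpaired.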

Additional observations from a re-analysis of the deposited data

How the results depend on the processing

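No member passed the adjusted threshold under any alternative run, each leave-one-out fit included (lowest adjusted p of a member 0.553). Over all targets the count was 0, except 1 with values floored at background, a setting that also moved the median difference of all targets from 0.00 to 0.12. At an unadjusted p under 0.05 the count of members, 1, was 5 with the median of each target's probes (1322 of all targets), 0 with an intensity trend and robust prior (1651), 3 with the ordinary test (1655), 2 with homologue names added after seeing the data, and 0 to 4 when a brain was left out, while that over all targets, 1696, was 1063 to 3098 (1063 without lead brain 1, 1075 without control brain 3, 3098 without control brain 2). With the replicate block these counts were 3 and 2035; only 2 of 6 arrays correlated best with the array of their own number. The median over member genes, 0.09, was 0.0519 without lead brain 1 and up to 0.10 otherwise among fits without a brain. Of 672 values of 45 named genes under alternatives, 30 in 19 genes had the other sign. Depth of signal limits the 10 genes not above background on every array.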

Other observations

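Targets named only by a homologue from another organism were looked at after the data had been seen. They number 94 under 56 names of the same families. Of these 57 were higher in lead brains, where 50.5% of all targets and 73.8% of the members were. Their median was 0.07. By class, 14 of 20 under usp names were higher (median 0.06) and 6 of 13 under fbxo names (median −0.08). Of the 94 targets 0 passed adjustment, and the groups did not overlap in 9 (9.57%, beside 9.49% of all targets). At an unadjusted p under 0.05 there was 1 (1.06%, beside 4.41% of all targets), which is named USP33, the homologue name of the deubiquitinase whose targets are described above. It read 12.82, 13.13 and 12.78 in control brains and 13.39, 13.48 and 13.29 in lead brains, at 0.48 ± 0.15 (limma, unadjusted p = 0.0135, adjusted p = 0.958). All lead brains lay above all controls, as for the shortest usp33 target and not for the brightest. The other targets without overlap were named PSMD11, PSMA2, UBE2D1 and USP10 on the higher side and UBE2E2, FBXL3A, FBXO34 and USP16 on the lower. The lower USP16 target was at −0.34 ± 0.15 and the lower FBXL3A target at −0.22 ± 0.12, both above background on every array. Other targets named FBXL3A were at 0.07 ± 0.18 and 0.10 ± 0.13, and no other target with the homologue name USP16 was above background on every array. The members usp16 (0.21 ± 0.14 and 0.04 ± 0.13) and fbxl3a (0.11 ± 0.13), above background on every array, were on the higher side.

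A target named PSME1, the partner of psme2 in the PA28 activator, read 13.03, 13.09 and 12.47 in control brains and 13.63, 12.46 and 13.11 in lead brains. Lead brains 1 and 3 and control brain 2 were its 3 highest, the order seen in most immune-type targets, and its difference was 0.21 ± 0.32. A target named PSMB3 read 14.83, 14.78 and 14.85 in control brains and 14.84, 14.79 and 14.82 in lead brains, a narrower spread than that of the target with the symbol psmb3. The 2 targets named FBXO16 were under background on every array.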
